A study of Mus musculus with 108 samples.

Results

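The genes described here are 10 components of the pathway that joins the ubiquitin ligase Cul3 to the actin cytoskeleton: the BACURD adaptors Kctd13, Tnfaip1 and Kctd10, the small GTPase Rhoa, the kinases Rock1 and Rock2, and the actin-binding proteins Flna, Cfl1, Pfn1 and Pfn2. They were chosen for their place in the pathway, with earlier results of these data known. All 10 were found by Ensembl identifier among the 53465 genes of the count table. RNA was sequenced from 3 brain regions, the cortex (CX), the hippocampus (HIP) and the cerebellum (CB), in wild-type (WT) and heterozygous Cul3+/- mice. The periods were E17.5, late in gestation, P7, early after birth, and P35, in young adults. P35 is the name in the labels, and the study gives the age of these adults as a range of weeks. The mice were C57BL/6N and the Cul3+/- mice carried a germline 1 bp insertion in exon 6 of Cul3, made with CRISPR/Cas9 and bred to WT mice from 1 founder, so the mutant arm is a single line. The sex of the mice is not in the sample labels and was not tested, apart from an alternative of the genotype tests with the level of Xist as a covariate. Each mouse gave 1 library per region, and after 2 adult mice whose genotype differed between the sample labels and the supplementary sample list were left out, 34 mice remained, 6 WT and 6 Cul3+/- at E17.5 and P7 and 5 of each at P35.

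Cul3 is the scaffold of a ubiquitin ligase that takes its substrates through BTB-domain adaptors. KCTD13, TNFAIP1 and KCTD10, the BACURD proteins, are related adaptors that present RhoA for ubiquitination and degradation by the proteasome. RhoA bound to GTP activates the kinases ROCK1 and ROCK2, which raise myosin contractility and, through LIM kinases, the phosphorylation of cofilin (Cfl1), a protein that severs actin filaments. Profilins (Pfn1 and the neuron-enriched Pfn2) deliver actin monomers to growing filaments, and filamin A (Flna) crosslinks filaments into networks and is known for its role in the migration of cortical neurons. Because the ligase acts on protein stability, the transcripts measured here do not show the level of RhoA protein.

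The promoters of the adaptors and of Rhoa are shown because these transcripts followed different courses over development while all 5 of these windows share 1 short element. The sequences are from RefSeq on GRCm38.p6, run 5′ to 3′ on the strand of the gene from 250 bases before to 50 bases after the annotated start, and have the 7 letters of an ETS-type core (CCGGAAG on either strand) in capitals.
Kctd13 (chr7:126928629-126928928, plus strand): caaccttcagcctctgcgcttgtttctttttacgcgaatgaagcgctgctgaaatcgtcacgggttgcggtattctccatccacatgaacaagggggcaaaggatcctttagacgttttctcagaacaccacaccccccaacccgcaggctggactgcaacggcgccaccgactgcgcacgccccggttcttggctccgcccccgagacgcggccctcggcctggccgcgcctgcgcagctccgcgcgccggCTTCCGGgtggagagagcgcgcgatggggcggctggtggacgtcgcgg
Tnfaip1 (chr11:78536211-78536510, minus strand): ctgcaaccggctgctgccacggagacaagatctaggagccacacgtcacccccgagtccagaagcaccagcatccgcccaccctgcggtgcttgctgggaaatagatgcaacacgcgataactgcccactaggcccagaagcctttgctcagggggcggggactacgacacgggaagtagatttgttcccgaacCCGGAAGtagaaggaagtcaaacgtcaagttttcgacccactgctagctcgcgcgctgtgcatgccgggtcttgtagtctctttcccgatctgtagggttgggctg
Kctd10 (chr5:114380456-114380755, minus strand): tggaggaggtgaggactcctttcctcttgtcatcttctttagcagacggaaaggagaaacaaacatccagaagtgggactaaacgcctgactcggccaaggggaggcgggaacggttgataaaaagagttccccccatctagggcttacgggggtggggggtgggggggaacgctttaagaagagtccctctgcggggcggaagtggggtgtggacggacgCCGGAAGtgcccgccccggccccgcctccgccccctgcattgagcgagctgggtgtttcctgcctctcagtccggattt
Rhoa (chr9:108305910-108306209, plus strand): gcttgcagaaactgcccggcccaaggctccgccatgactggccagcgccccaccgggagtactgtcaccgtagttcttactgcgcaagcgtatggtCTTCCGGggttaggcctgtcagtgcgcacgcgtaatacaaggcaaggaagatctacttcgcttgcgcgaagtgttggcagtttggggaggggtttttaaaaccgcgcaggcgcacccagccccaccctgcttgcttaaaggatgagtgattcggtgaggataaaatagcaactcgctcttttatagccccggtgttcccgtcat
Rhoa (chr9:108306547-108306846, plus strand): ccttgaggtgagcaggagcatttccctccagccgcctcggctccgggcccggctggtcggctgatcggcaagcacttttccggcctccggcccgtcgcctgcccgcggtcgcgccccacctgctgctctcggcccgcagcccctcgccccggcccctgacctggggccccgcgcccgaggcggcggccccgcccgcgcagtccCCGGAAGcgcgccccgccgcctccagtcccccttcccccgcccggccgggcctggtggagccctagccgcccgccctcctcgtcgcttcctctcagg
The core began at position 2 after the start of Kctd13, at -56 for Tnfaip1 and at -29 for Kctd10, counting the start base as 0, and at -154 and -47 in the 2 annotated promoters of Rhoa. Of the 9 genes of the pathway with a promoter in the table used, 5 held it (Cfl1 is the other) against 8.86% of 32851 mouse promoters. All 9 held a GC box (GGGCGG), as did 35.7% of all promoters. A CCAAT box (CCAAT) was found in Cfl1 only (37.4% of all). The letters of a TATA box (TATAAA) were found in Rhoa only (13.6% of all). There they lay on the opposite strand and after the annotated start, in the first Rhoa window shown. The CArG box, the site of serum response factor, was found in none of the 9 (1.63% of all). A match describes letters in a window and not a bound site, and the searches covered both strands.

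The libraries held between 15126114 and 44411282 counts (median 32663960), and each of the 10 genes had at least 394 counts in every library. Cul3 itself separated the genotypes in every dataset, a dataset being 1 region at 1 period. Its level was between 161 and 218 CPM in WT and between 85.5 and 125 CPM in Cul3+/- libraries, and no libraries of the 2 genotypes overlapped within any dataset (exact permutation test, p = 0.00216 at E17.5 and P7 and 0.00794 at P35, the smallest values these group sizes allow). With the 2 left-out adult mice added at the genotypes of the labels, Cul3 differed by -0.96 in CX, -0.99 in HIP and -0.78 in CB at P35 on the log2 scale (exact permutation, p = 0.00216 each). With those of the supplementary list it differed by -0.60, -0.65 and -0.45 (exact permutation, p from 0.0584 to 0.0801). Cul3 thus kept the genotypes fully apart at P35 with the labels and did not with the supplementary list. CPM is the count relative to the library size after TMM scaling. Several region markers followed the labels: Emx1, a forebrain transcription factor, averaged at least 7.79 CPM in WT CX and HIP and at most 0.050 CPM in WT CB, and En2, a hindbrain transcription factor, at least 85.1 CPM in CB and at most 0.489 CPM elsewhere. Prox1, a factor of dentate granule cells, averaged at least 110.3 CPM in HIP and at most 13.9 CPM in CX. Not every listed marker was highest in the region it was listed for, among them Neurod2, a cortical marker with 82.2 CPM in CX and 172.9 CPM in CB at P7, and Lmo3, a hippocampal marker with 31.9 CPM in HIP and 111.9 CPM in CX at E17.5.

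To set the baseline, the levels of the 10 genes were first described in WT mice. Per kilobase of exon, which is the scale that allows genes to be compared, Cfl1 had the highest mean level of the 10 in every one of the 9 WT groups, from 145 CPM per kb in P35 CB to 288 in P7 CX. Rock1 had the lowest in every group except E17.5 CX, where it stood at 14.8 CPM per kb beside 14.6 for Rock2, and it reached 4.98 in P7 CX. Among the adaptors at P7, Kctd13 stood at 44.2 CPM per kb in CX, above Kctd10 at 18.4 and Tnfaip1 at 17.8. In CB of the same age Kctd13 was the lowest of the 3, with Kctd10 at 18.7, Tnfaip1 at 16.2 and Kctd13 at 14.9. Rhoa stayed between 46.7 (P35 CX) and 74.4 CPM per kb (P7 CB). Across the 9 WT groups, the ratio of the highest to the lowest mean was 6.42 for Flna, 4.41 for Rock2, 2.97 for Rock1, 2.96 for Kctd13, 2.49 for Pfn2, 2.21 for Pfn1, 1.98 for Cfl1, 1.84 for Kctd10, 1.79 for Tnfaip1 and 1.59 for Rhoa, so the GTPase itself had the narrowest range and its kinase Rock2 one of the widest.

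**Figure D1:**
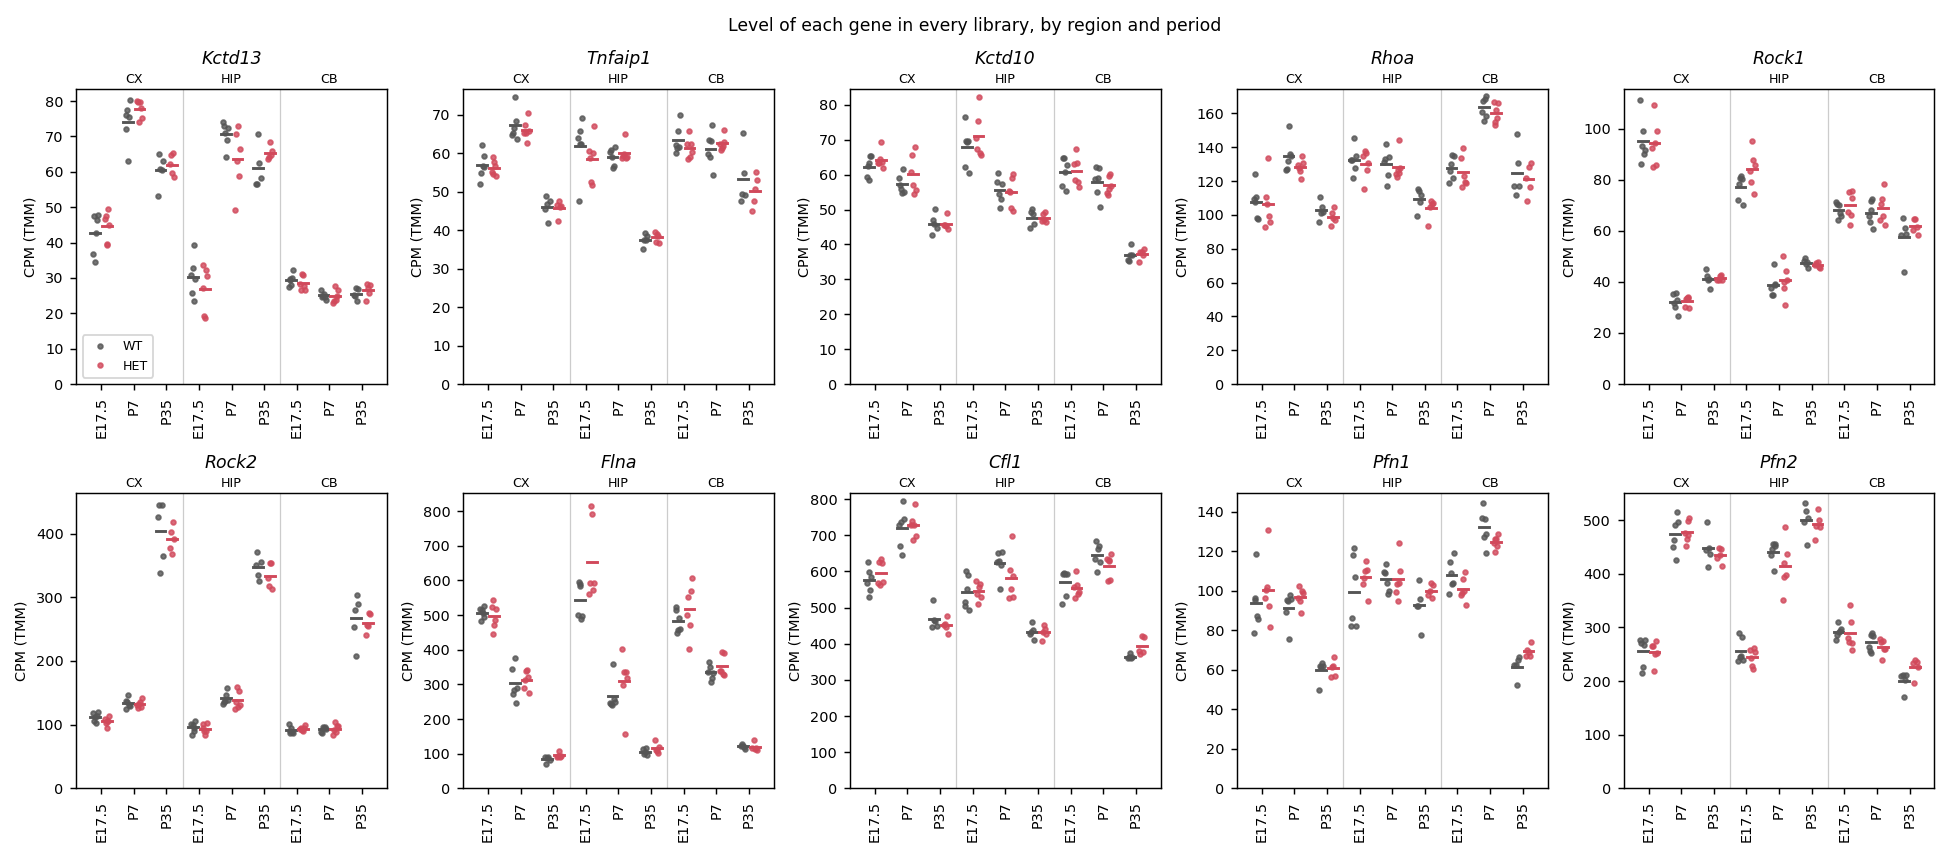
Level of each of the 10 genes in every library, in CPM after TMM scaling (y axis, from 0), by region and period (x axis), with WT (grey) and Cul3+/- (red, HET) libraries as points and group means as bars. Flna falls from 542 CPM in E17.5 HIP to 84.5 CPM in P35 CX, Rock2 rises to 404 CPM in P35 CX, and the points of the 2 genotypes lie among each other in nearly every group.

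The question of when the pathway is expressed was addressed by testing neighbouring periods within WT mice of each region with edgeR's quasi-likelihood test, calling genes at a Benjamini-Hochberg adjusted p under 0.1 over all genes tested. In CX, 9 of the 10 genes changed from E17.5 to P7, where 81.9% of all genes did, and 9 from P7 to P35 (67.7% of all genes). In HIP, 7 changed from E17.5 to P7 (78% of all genes) and 8 from P7 to P35 (62.7%). In CB, 6 changed in the first step (71.2%) and 9 in the second (79.4%). Most genes of these brains changed between the periods, so these counts are near the background and the sizes and directions below carry the description. In bulk tissue, a change in the number of cells of a type and a change in the RNA per cell cannot be told apart. Where a replicate number was left out of these tests, it was dropped from every period of the region at once.

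Among the adaptors, Kctd13 (chr7:126928879-126945631, plus strand, ENSMUSG00000030685; all coordinates are GRCm38) changed in opposite directions in forebrain and cerebellum from E17.5 to P7. In CX it ran from 34.4 to 47.9 CPM (median 44.5) at E17.5 and from 63.0 to 80.3 CPM (median 75.8) at P7, and the 5 libraries of P35 held 53.2, 65.1, 60.9, 60.4 and 63.1 CPM. The E17.5 libraries all lay below those of P7, and the P7 and P35 libraries overlapped. In the first step it rose on the log2 scale by 0.75 (SE 0.087, adjusted p = 3.20e-07) in CX and by 1.21 (SE 0.10, adjusted p = 4.76e-09) in HIP. In CB it fell in the same step by 0.25 (SE 0.051, adjusted p = 3.40e-04) on the log2 scale, from 27.4 to 32.1 CPM (median 29.6) to 23.8 to 26.7 CPM (median 24.7), again without overlap. Whether the step differed between regions was not tested as an interaction. After P7, Kctd13 fell in CX by 0.26 (SE 0.091, adjusted p = 0.0206) on the log2 scale, and neither HIP, at -0.19 (SE 0.10, adjusted p = 0.119), nor CB, at 0.039 (SE 0.054, adjusted p = 0.524), passed the test.

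Tnfaip1 (chr11:78522850-78536332, minus strand, ENSMUSG00000017615) and Kctd10 (chr5:114363567-114380508, minus strand, ENSMUSG00000001098) declined toward adulthood. Tnfaip1 ran from 56.3 to 61.5 CPM (median 59.7) in P7 HIP, and the 5 P35 libraries of HIP held 35.2, 37.4, 39.2, 37.4 and 38.5 CPM, all below the P7 libraries. It fell from P7 to P35 by 0.63 ± 0.075 (log2, ± SE) in HIP, by 0.51 ± 0.057 in CX and by 0.19 ± 0.072 in CB, the last of which did not pass without WT replicate 2 (adjusted p = 0.122, edgeR). In the first step it rose in CX only, by 0.19 (SE 0.054, adjusted p = 0.00333), while HIP stood at -0.080 ± 0.070 and CB at -0.068 ± 0.069. Kctd10 ran from 50.7 to 62.1 CPM (median 58.8) in P7 CB, and the 5 P35 libraries of CB held 35.4, 35.3, 37.1, 40.1 and 36.9 CPM. Kctd10 fell in that step by 0.64 (SE 0.060, adjusted p = 1.56e-08) on the log2 scale, more than the 0.28 ± 0.055 of CX and the 0.20 ± 0.067 of HIP, a difference between regions that was not tested. From E17.5 to P7 it fell by 0.17 ± 0.052 in CX and by 0.30 ± 0.064 in HIP, and in CB the value of -0.084 (SE 0.057, adjusted p = 0.196) did not pass.

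Rhoa (chr9:108306129-108337934, plus strand, ENSMUSG00000007815), the substrate GTPase, rose and then fell in CX and CB. Its CB libraries ran from 119 to 135 CPM (median 128) at E17.5 and from 155 to 171 CPM (median 164) at P7, and the 5 P35 libraries held 117, 112, 148, 131 and 117 CPM. The P7 libraries of CB lay above all of E17.5 and of P35. Rhoa rose by 0.34 (SE 0.060, adjusted p = 6.87e-05) in CB and 0.27 (SE 0.062, adjusted p = 6.33e-04) in CX from E17.5 to P7, and HIP, at -0.037 (SE 0.058, adjusted p = 0.575), did not pass. From P7 to P35 it fell in all 3 regions, by 0.36 ± 0.066 in CX, 0.22 ± 0.061 in HIP and 0.38 ± 0.063 in CB. P7 CB had the highest mean, 163 ± 6.24 CPM (SD, n = 6), and P35 CX the lowest, 103 ± 5.61 CPM (SD, n = 5). Of the 8 pairs of neighbours in the order of its means, 7 had overlapping ranges, the exception being P7 CB above P7 CX.

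From E17.5 to P7 the 2 kinases moved in opposite directions in CX and HIP. Rock1 ran from 86.2 to 111 CPM (median 92.4) in E17.5 CX and from 26.6 to 35.8 CPM (median 32.3) in P7 CX, without overlap, and fell by 1.62 (SE 0.076, adjusted p = 2.48e-12) on the log2 scale. In HIP it fell by 1.01 (SE 0.069, adjusted p = 6.20e-10), and in CB, where it ran from 64.3 to 71.3 CPM (median 68.5) and then from 60.6 to 72.5 CPM (median 66.9), the value of -0.038 (SE 0.073, adjusted p = 0.658) did not pass. From P7 to P35 Rock1 rose by 0.40 ± 0.078 in CX and 0.32 ± 0.072 in HIP and fell by 0.21 ± 0.077 in CB, or 0.12 without WT replicate 3. Rock2 (chr12:16894895-16987823, plus strand, ENSMUSG00000020580) ran from 125 to 147 CPM (median 133) in P7 CX, and the 5 P35 libraries of CX held 426, 444, 337, 445 and 365 CPM. Every P35 library thus exceeded every P7 library, and the same held in HIP and CB. Rock2 rose in this step by 1.62 (SE 0.074, adjusted p = 2.62e-12) in CX, 1.32 (SE 0.065, adjusted p = 1.41e-11) in HIP and 1.54 (SE 0.077, adjusted p = 1.34e-12) in CB. The first step was smaller for Rock2, with a rise of 0.21 ± 0.071 in CX and 0.55 ± 0.062 in HIP and a CB value of 0.00041 ± 0.073 that did not pass.

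Measured within each library, the ratio of Rock2 to Rock1 counts gave the same course. Its log2 value ran from 0.050 to 0.38 in E17.5 CX, from 1.83 to 2.28 in P7 CX and from 3.05 to 3.44 in P35 CX, and no libraries of neighbouring periods overlapped. It rose by 1.83 (exact permutation, p = 0.00216, adjusted p = 0.00306) and then by 1.22 (exact permutation, p = 0.00216, adjusted p = 0.00306). In CB it ran from 0.36 to 0.50 at E17.5 and from 0.41 to 0.62 at P7, and the difference of 0.041 (exact permutation, p = 0.333, adjusted p = 0.348) did not pass. The rise in CB came between P7 and P35, by 1.75 (exact permutation, p = 0.00216, adjusted p = 0.00306), to values from 2.11 to 2.31. Of 24 such tests over 4 pairs of genes, 21 passed at an adjusted p of 0.05, and an exact p = 0.00216 is the smallest that these groups allow.

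The ratio of the profilins differed by region. Pfn2 over Pfn1 rose in CX by 0.92 (exact permutation, p = 0.00216, adjusted p = 0.00306) and in HIP by 0.68 (exact permutation, p = 0.00216, adjusted p = 0.00306) from E17.5 to P7, on the log2 scale. In CB it fell in the same step by 0.40 (exact permutation, p = 0.00216, adjusted p = 0.00306). From P7 to P35 it rose in all 3 regions, by 0.53 in CX, 0.37 in HIP and 0.66 in CB. Among the adaptors, Kctd13 over Tnfaip1 rose from E17.5 to P7 by 1.3 (exact permutation, p = 0.00216, adjusted p = 0.00306) in HIP and by 0.56 (exact permutation, p = 0.00649, adjusted p = 0.00866) in CX and fell by 0.18 (exact permutation, p = 0.00866, adjusted p = 0.0109) in CB. Kctd10 over Tnfaip1 did not pass from E17.5 to P7 in HIP, -0.23 (exact permutation, p = 0.0498, adjusted p = 0.0543), or in CB, -0.016 (exact permutation, p = 0.723, adjusted p = 0.723). From P7 to P35 it rose by 0.43 (exact permutation, p = 0.00216, adjusted p = 0.00306) in HIP and fell by 0.44 (exact permutation, p = 0.00216, adjusted p = 0.00306) in CB.

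**Figure D2:**
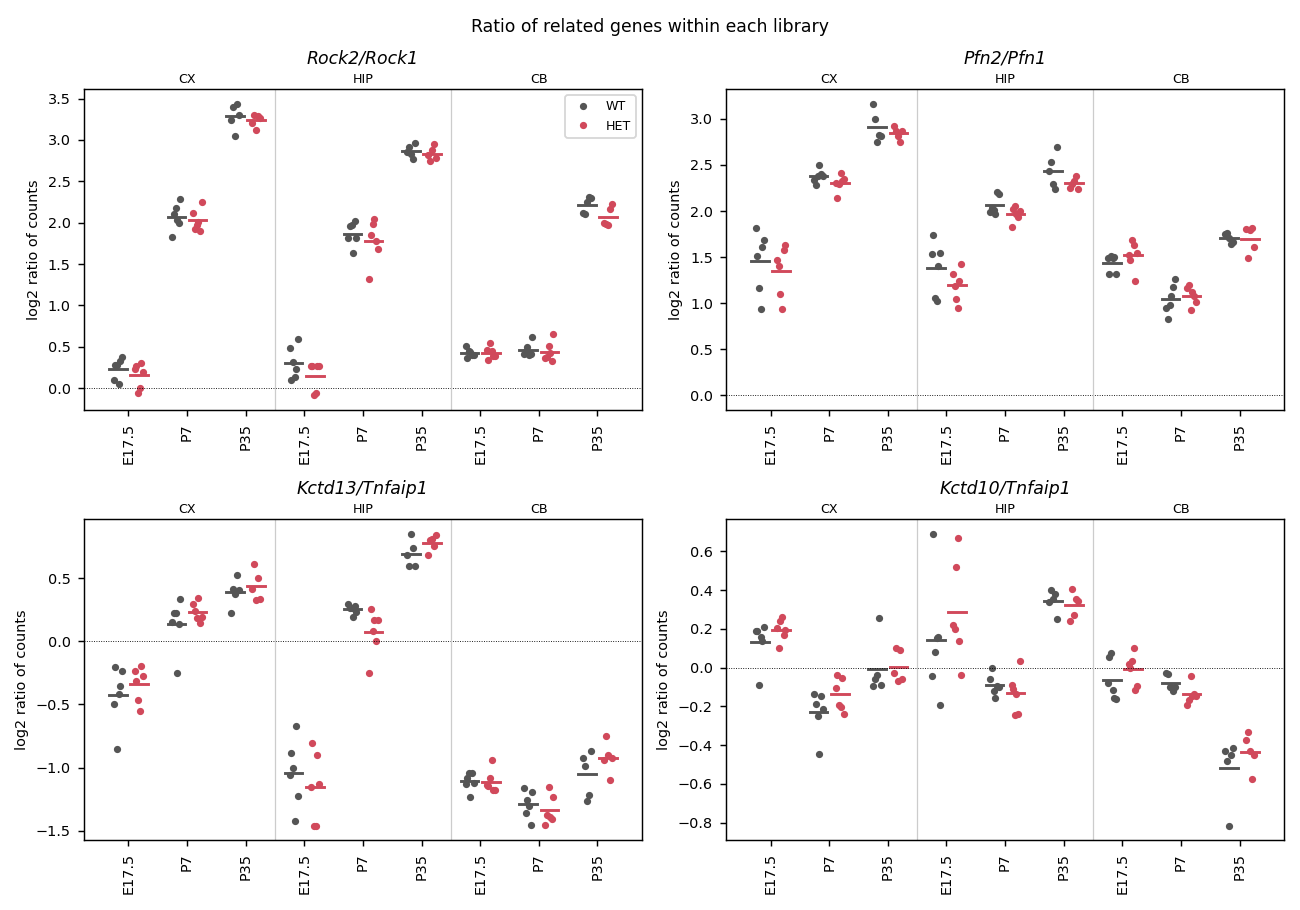
Log2 ratio of the counts of 2 related genes in every library (y axis), by region and period (x axis), with WT (grey) and Cul3+/- (red, HET) libraries as points and group means as bars. Rock2 over Rock1 climbs in CX already between E17.5 and P7. In WT CB it stays between 0.36 and 0.62 until P7 and is above 2.1 at P35, where the Cul3+/- libraries run from 1.98 to 2.23.

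Flna and Cfl1 fell from P7 to P35 in every region, to different extents. Flna (chrX:74223461-74249820, minus strand, ENSMUSG00000031328), the crosslinker, ran from 483 to 527 CPM (median 509) in E17.5 CX and from 248 to 377 CPM (median 287) in P7 CX, and the 5 P35 libraries held 91.4, 71.5, 87.5, 91.5 and 80.5 CPM, so no libraries of neighbouring periods overlapped. It fell at both steps in every region, by 0.79 ± 0.089 and 1.81 ± 0.10 in CX, by 1.04 ± 0.10 and 1.3 ± 0.11 in HIP and by 0.54 ± 0.058 and 1.46 ± 0.063 in CB. Cfl1 (chr19:5490455-5495201, plus strand, ENSMUSG00000056201) ran from 597 to 684 CPM (median 648) in P7 CB, and the 5 P35 libraries held 362, 364, 373, 360.1 and 362 CPM. Cfl1 rose from E17.5 to P7 by 0.27 ± 0.066 in CX, 0.19 ± 0.064 in HIP (0.12 with upper-quartile scaling) and 0.17 ± 0.052 in CB, and then fell by 0.58 ± 0.070, 0.50 ± 0.068 and 0.81 ± 0.055.

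The profilins parted by region. Pfn1 (chr11:70651850-70654644, minus strand, ENSMUSG00000018293) ran from 119 to 144 CPM (median 132) in P7 CB, and the 5 P35 libraries held 62.4, 62.1, 52.3, 64.7 and 66.3 CPM, all below P7. It fell in that step by 1.09 (SE 0.068, adjusted p = 3.75e-11) on the log2 scale in CB and by 0.58 (SE 0.10, adjusted p = 5.72e-05) in CX, and HIP, at -0.16 (SE 0.11, adjusted p = 0.204), did not pass. Pfn1 rose from E17.5 to P7 in CB, by 0.28 (SE 0.063, adjusted p = 8.86e-04), and did not pass in CX or HIP. Pfn2 (chr3:57841895-57848079, minus strand, ENSMUSG00000027805) ran from 215 to 277 CPM (median 269) in E17.5 CX and from 426 to 515 CPM (median 477) in P7 CX, and rose by 0.84 ± 0.076 in CX and 0.77 ± 0.063 in HIP. In CB it fell by 0.12 (SE 0.058, adjusted p = 0.0839) in this step (-0.076 without WT replicate 3), a call that was lost when WT replicate 1, 2, 3, 4 or 5 was left out (adjusted p between 0.109 and 0.185). From P7 to P35 it rose by 0.21 ± 0.066 in HIP, fell by 0.43 ± 0.061 in CB and stood at -0.046 (SE 0.079, adjusted p = 0.631) in CX.

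The same steps were computed in Cul3+/- mice and are given beside those of WT. Over the 60 steps, 10 genes in 3 regions over 2 intervals, the WT and Cul3+/- log2 fold changes lay a median of 0.044 apart, and 11 lay more than 0.1 apart. Rock2 rose from P7 to P35 in CX by 1.62 in WT, beside 1.59 in Cul3+/- mice, and Kctd13 rose from E17.5 to P7 in HIP by 1.21, beside 1.20. The 4 widest gaps were all between P7 and P35. For Kctd13 in HIP the values were -0.19 in WT and 0.086 in Cul3+/- mice. In CB they were -1.09 and -0.83 for Pfn1, -0.43 and -0.21 for Pfn2, and -0.81 and -0.63 for Cfl1. The sign differed in 5 of the 60 steps, none of them called in WT, and the single steps were not tested for a difference between genotypes.

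Where the pathway is expressed was tested between regions within the same WT mice, with mouse as a block. At E17.5, 5 of the 10 genes differed between CX and HIP (46.5% of all genes), 7 between CX and CB (61.7%) and 4 between HIP and CB (49.5%). At P7 the counts were 6 (57% of all genes), 8 (82.9%) and 10 (78.2%), and at P35 they were 7 (51.5%), 9 (75.4%) and 10 (75.1%), in the same order of regions. Of the 10 calls between HIP and CB at P7, those of Tnfaip1, Kctd10 and Cfl1 were lost without WT replicate 4 (adjusted p between 0.479 and 0.709) and with DESeq2. At E17.5 the calls between HIP and CB were the least stable, with between 2 and 4 members called as single mice were left out.

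Kctd13 had the largest differences between regions among the 3 adaptors. At P35 its 5 WT libraries held 56.6, 56.6, 70.7, 62.4 and 58.3 CPM in HIP and 25.1, 24.9, 27.2, 23.6 and 26.8 CPM in CB. It was higher in HIP than in CB by 1.24 (SE 0.060, adjusted p = 1.18e-09) and in CX than in CB by 1.25 (SE 0.060, adjusted p = 1.06e-09). At P7 the same differences were 1.43 ± 0.049 and 1.51 ± 0.049. At E17.5 it was higher in CX than in HIP, by 0.47 ± 0.10, and than in CB, by 0.50 ± 0.10, whereas HIP and CB, at 0.034 (SE 0.10, adjusted p = 0.811), did not pass. Kctd10 was higher in CX than in CB only at P35, by 0.32 (SE 0.042, adjusted p = 1.86e-05), among the 3 periods. Tnfaip1 was lower in HIP than in CB at P35, at -0.51 (SE 0.072, adjusted p = 3.52e-05).

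Rhoa was lower in CX than in CB at every period, at -0.27 ± 0.061 at E17.5, -0.33 ± 0.054 at P7 and -0.27 ± 0.066 at P35, CX minus CB on the log2 scale. The kinases took opposite sides: at P7 Rock1 was lower in CX than in CB, at -1.12 ± 0.049, and Rock2 was higher, at 0.49 ± 0.041. At E17.5 both were higher in CX than in CB, at 0.46 ± 0.061 for Rock1 and 0.26 ± 0.059 for Rock2. Pfn2 was higher in the forebrain than in CB after birth, by 0.75 ± 0.045 (CX, P7), 1.16 ± 0.054 (CX, P35) and 1.31 ± 0.054 (HIP, P35). Pfn1 was lower in CX than in HIP at P35, at -0.62 (SE 0.088, adjusted p = 9.43e-05). Cfl1 was higher in CX than in CB at P35, by 0.37 ± 0.045, and Flna was lower there, at -0.52 ± 0.066.

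The genes whose mean level followed the adaptors or Rhoa most closely over the 9 WT groups were found among 14777 genes by Pearson's r, which is a description, since the groups share mice and regions. For Rhoa these were Angpt1 (r = 0.965), Eva1b (0.963) and Cdh5 (0.946). For Kctd13 they were Adck1 (0.987), Triqk (0.986) and Btbd1 (0.979), for Tnfaip1 Phtf2 (0.961), Lrrc75b (0.944) and Tmem164 (0.941), and for Kctd10 Sema5b (0.983), Unc119 (0.983) and Jpt1 (0.980). Among the 10 genes themselves, Kctd13 and Pfn2 had the highest correlation (r = 0.902) and Rock2 and Flna the lowest (r = -0.967).

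The question of the study, what loss of 1 copy of Cul3 does in the brain, was then asked of these transcripts. None of the 10 was called in any of the 9 datasets with edgeR's quasi-likelihood test, and 3 of the 90 tests had an unadjusted p under 0.05. DESeq2 and edgeR's likelihood ratio test called none either. RUVs, the removal of unwanted variation that the study used, run here without a sex term, called none with 3 factors, and with 5 factors it called Kctd13 and Pfn1 in P35 HIP, where it called 2.77% of all genes, and none in the other 8 datasets. Over all genes, 1 gene, Cul3, was called per dataset, which is 0.00603% of the genes tested in E17.5 CX, 0.00586% in E17.5 HIP, 0.00568% in E17.5 CB, 0.00566% in P7 CX, 0.00563% in P7 HIP, 0.0057% in P7 CB, 0.00569% in P35 CX, 0.00584% in P35 HIP and 0.00584% in P35 CB. Across the 90 values the log2 fold changes of Cul3+/- over WT lay between -0.18 (Kctd13, E17.5 HIP) and 0.26 (Flna, E17.5 HIP), with a median size of 0.042.

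A mean over the 9 datasets was fitted with limma-voom on all libraries, with the correlation between libraries of the same mouse estimated (0.103). It called 14 genes, 0.0671% of 20859, and none of the 10. Where a replicate number was left out of this mean, it was dropped from every dataset at once, so mice of every period went together. For the adaptors the mean log2 fold change was -0.0072 (SE 0.033, adjusted p = 0.997) for Kctd13, -0.018 (SE 0.022, adjusted p = 0.980) for Tnfaip1 and 0.018 (SE 0.020, adjusted p = 0.980) for Kctd10. As 95% intervals of the change in level, these are -4.89% to 4.09%, -4.13% to 1.69% and -1.48% to 4.03%. For Cul3 in the same fit the change was -44.6% (-45.9% to -43.3%).

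Rhoa had a mean of -0.041 (SE 0.022, adjusted p = 0.938), an interval of -5.70% to 0.218%, and -0.025 without WT replicate 3. At P35 CX its 5 WT libraries held 95.5, 111, 101, 105 and 101 CPM and its 5 Cul3+/- libraries 93.5, 101, 98.2, 105 and 96.9 CPM. In P7 CB it ran from 155 to 171 CPM (median 164) in WT and from 153 to 167 CPM (median 159.8) in Cul3+/- mice. The groups overlapped in both and in the other 7 datasets, and the fold changes, between -0.072 and -0.0063, were all on the lower side in Cul3+/- mice, 9 of 9. The datasets of a period share mice, so the 9 values are not independent.

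The kinases stood at 0.041 (SE 0.027, adjusted p = 0.944) for Rock1 and -0.027 (SE 0.023, adjusted p = 0.956) for Rock2 in the mean over the 9 datasets, and Rock1 at 0.027 without WT replicate 6. Cfl1 stood at -0.0081 (SE 0.020, adjusted p = 0.994), Pfn1 at 0.050 (SE 0.029, adjusted p = 0.944) and Pfn2 at -0.013 (SE 0.024, adjusted p = 0.992), and Pfn1 at 0.031 without Cul3+/- replicate 4. Pfn1 was the 1 member whose groups did not overlap in a dataset: in P35 CB its WT libraries held 62.4, 62.1, 52.3, 64.7 and 66.3 CPM and its Cul3+/- libraries 66.8, 70.2, 68.9, 67.0 and 74.1 CPM. All 5 Cul3+/- libraries lay above the 5 WT libraries, a difference of 0.15 (SE 0.065, adjusted p = 0.344) in log2 units in edgeR, which was 0.094 without WT replicate 3 and 0.097 with 3 RUVs factors. In this dataset 3.06% of all genes had groups without overlap and 14.4% had an unadjusted p under 0.05, the most of the 9 datasets. WT replicate 3, the lowest for Pfn1, was also the lowest WT library for Rock1, Rock2 and Pfn2 and the highest for Rhoa and Cfl1 there.

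Flna had the largest mean among the 10, 0.10 (SE 0.041, adjusted p = 0.761), an interval of 1.38% to 13.3%, and was higher in Cul3+/- mice in 7 of 9 datasets. In E17.5 HIP it ran from 489 to 595 CPM (median 541) in WT and from 560.3 to 815 CPM (median 592) in Cul3+/- mice. The ranges overlapped, and the difference was 0.26 (SE 0.12, adjusted p = 0.941) in log2 units, and 0.15 with 3 or 5 RUVs factors. In P7 HIP Flna ran from 241 to 359 CPM (median 247) in WT and from 158 to 402 CPM (median 328) in Cul3+/- mice, so the Cul3+/- range enclosed that of WT. In P35 CX the 5 WT libraries held 91.4, 71.5, 87.5, 91.5 and 80.5 CPM and the 5 Cul3+/- libraries 91.8, 93.1, 108, 91.1 and 92.2 CPM. The lowest Cul3+/- library lay within the WT range, and the difference was 0.19 (SE 0.078, adjusted p = 0.997), which was 0.13 without WT replicate 2 and 0.11 with the genotypes of the supplementary list for the 2 adult mice. By region, the mean over periods in HIP was 0.18 (SE 0.065, adjusted p = 0.769), against 0.070 (SE 0.065, adjusted p = 1.0) in CX and 0.048 (SE 0.065, adjusted p = 1.0) in CB.

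**Figure D3:**
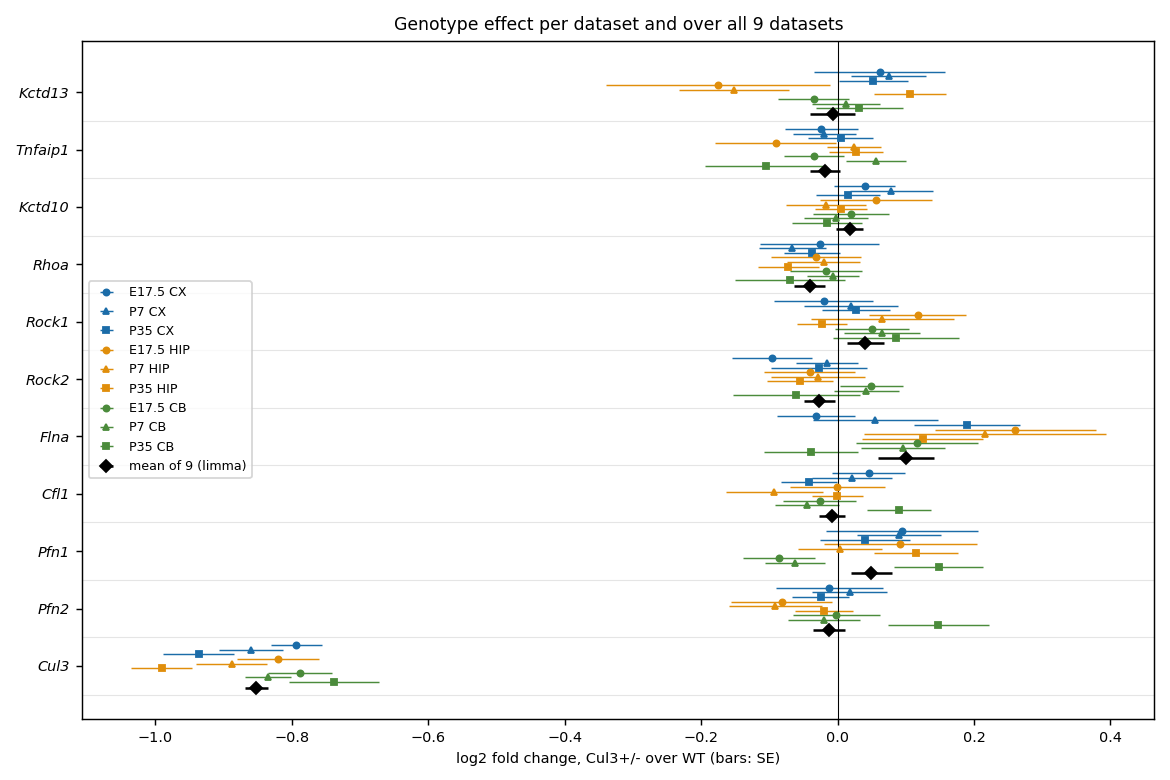
Log2 fold change of Cul3+/- over WT (x axis) for each of the 10 genes and Cul3 (y axis), per dataset and as the mean over the 9 datasets, with SE bars. The values of the 10 genes lie between -0.18 and 0.26, around 0, while those of Cul3 lie between -0.99 and -0.74.

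None of the 10 was called in the narrower means either. The mean over regions called 0.00479% of all genes at E17.5, 0.0479% at P7 and 0.00959% at P35. The mean over periods called 0.00959% in CX, 0.0144% in HIP and 0.0144% in CB. A test of whether the genotype effect differs among the 9 datasets called 0% of all genes (limma, 893 genes at an unadjusted p under 0.05), and therefore none of the 10. Of 36 exact permutation tests of the ratios of related members between genotypes, none passed after adjustment. The smallest p was for Kctd13 over Tnfaip1 in P7 HIP, where the log2 ratio ran from 0.19 to 0.30 in WT and from -0.25 to 0.25 in Cul3+/- mice, a difference of -0.19 (exact permutation, p = 0.00649, adjusted p = 0.234). When same-numbered mice were paired (exact sign-flip permutation), none of the 36 passed and 4 had p = 0.0312, the smallest that 6 pairs allow (adjusted p = 0.281). Pfn2 over Pfn1 was lower in Cul3+/- mice in 6 of 6 pairs in E17.5 CX, with a mean difference of -0.10, in E17.5 HIP, with -0.19, and in P7 CX, with -0.074, and in 1 of 6 in E17.5 CB, with 0.078. Kctd13 over Tnfaip1 was lower in 6 of 6 in P7 HIP. Same-numbered mice shared the prefix of their names in all of these datasets. Only in E17.5 CX did every such pair deviate together across genes at r above 0.1. In P7 CX every pair had a positive r, the lowest being 0.087.

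The wider pathway was taken from 9 lists of 116 further genes, of which 115 were tested in the mean over the 9 datasets. Besides Cul3, 1 of these was called, Cnn2, and 14 (12.2%) had an unadjusted p under 0.05, against 5.44% of all genes. The lists were chosen with earlier results of these data known, so these shares are a description only. An effect on the pathway as a set was not tested. By list, no gene was called among 13 other small GTPases, 14 exchange factors, 15 GTPase-activating proteins and inhibitors, 12 effectors, 11 regulators of myosin, 12 genes of the cofilin cycle and 15 actin and filament-binding genes. Their median log2 fold changes lay between -0.019 and 0.017, against -0.0019 over all genes. The median of the 12 targets and cofactors of SRF, a transcription factor that responds to actin, was 0.14, and 9 of the 12 stood higher in Cul3+/- mice. Among the partners of the Cul3 ligase, Arih1, a ligase that works with cullins, stood at -0.042 (SE 0.020, adjusted p = 0.883).

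Cnn2, the actin-binding protein calponin 2, was higher in Cul3+/- mice by 0.21 (SE 0.048, adjusted p = 0.0661) in limma, a rise of 15.9% (8.54% to 23.7%), in 9 of 9 datasets. In P35 CB the 5 WT libraries held 8.26, 9.56, 8.60, 7.23 and 7.13 CPM and the 5 Cul3+/- libraries 10.5, 10.5, 10.5, 9.51 and 10.8 CPM, with ranges that just overlapped. The call was lost when WT replicate number 1, 4, 5 or 6 or Cul3+/- number 1, 3 or 4 was left out (limma, adjusted p between 0.115 and 0.253). Each of these numbers was dropped from every dataset at once, so more than a single mouse was removed. The call was also lost with both adult mice kept at the genotypes of the supplementary list (limma, adjusted p = 0.362). With both kept at the genotypes of the labels it was held (0.22, limma, adjusted p = 0.0199). Of these 2 sources of genotypes, only the labels kept Cul3 fully apart between genotypes at P35. The genes next to it on the lists, none of which was called, were Ccn2, a matricellular protein, at 0.28 (SE 0.081, adjusted p = 0.402), Myl9, a smooth muscle myosin light chain, at 0.15 (SE 0.041, adjusted p = 0.202), its kinase Mylk at 0.13 (SE 0.042, adjusted p = 0.476), the muscle filamin Flnc at 0.22 (SE 0.076, adjusted p = 0.611) and Vasp, a filament elongation factor, at 0.079 (SE 0.029, adjusted p = 0.636).
Genes with the smallest p in each other list, none called, were Rnd3 (0.082) and Rac1 (-0.027) among the GTPases, Plekhg5 (0.050) and Arhgef3 (-0.084) among the exchange factors, Arhgap20 (-0.089) and Arhgap26 (-0.088) among the GTPase-activating proteins, Rhpn1 (0.051) among the effectors, and Tesk2 (0.067) and Ssh2 (-0.055) in the cofilin cycle, as log2 fold changes from limma with adjusted p of at least 0.915.

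Markers of vessels and of their coverings stood higher in Cul3+/- mice beside Flna and Cnn2. In the mean over the 9 datasets all 7 endothelial markers stood higher in Cul3+/- mice (median 0.098, 0 called, 5 at an unadjusted p under 0.05 in limma). So did all 10 mesenchymal and mural markers (median 0.20, 0 called, 4 at an unadjusted p under 0.05), among them 3, Acta2, Myh11 and Tagln, that are also on the SRF list. In the means over periods, the mesenchymal and mural markers standing higher numbered 10 of 10 in HIP (median 0.35), 9 in CB (0.18) and 6 in CX (0.021). The endothelial markers standing higher numbered 7 of 7 in CX, 6 in HIP and 6 in CB. The summed level of the mesenchymal and mural markers in E17.5 HIP was 142 to 357 CPM in WT and 212 to 451 CPM in Cul3+/- libraries, and in P35 CX it was 194 to 247 and 197 to 271 CPM. The endothelial sum was 95.1 to 159 and 126 to 197 CPM in E17.5 HIP and 145 to 174 and 154 to 182 CPM in P35 CX, with no marker of either list at 0 in a whole group. The mean log2 level of the endothelial list was higher in Cul3+/- mice in 9 of 9 datasets and that of the mesenchymal and mural list in 8 of 9. By the same mean, the choroid plexus list was higher in 8 of 9, by 2.43 in P7 CB, with P35 HIP the exception, and the erythroid list in 7 of 9. Counted marker by marker, the choroid plexus list did not always follow its mean. In Cul3+/- mice 0 of 6 markers stood higher in E17.5 HIP (list mean 0.097) and in P35 CB (0.45), and 2 of 6 in P7 CX (0.0040). In the limma mean over periods in HIP all 6 stood lower (median -0.17). Of the 6 neuronal markers, 5 stood lower (median -0.093, 0 called, 3 at an unadjusted p under 0.05). Flna shared its highest library with the endothelial list in 2 of 9 datasets and with the mesenchymal and mural list in 1. With the list of cortex markers it did so in 4. The part of the listed cell types in the values of Flna and Cnn2 was not tested.

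**Figure D4:**
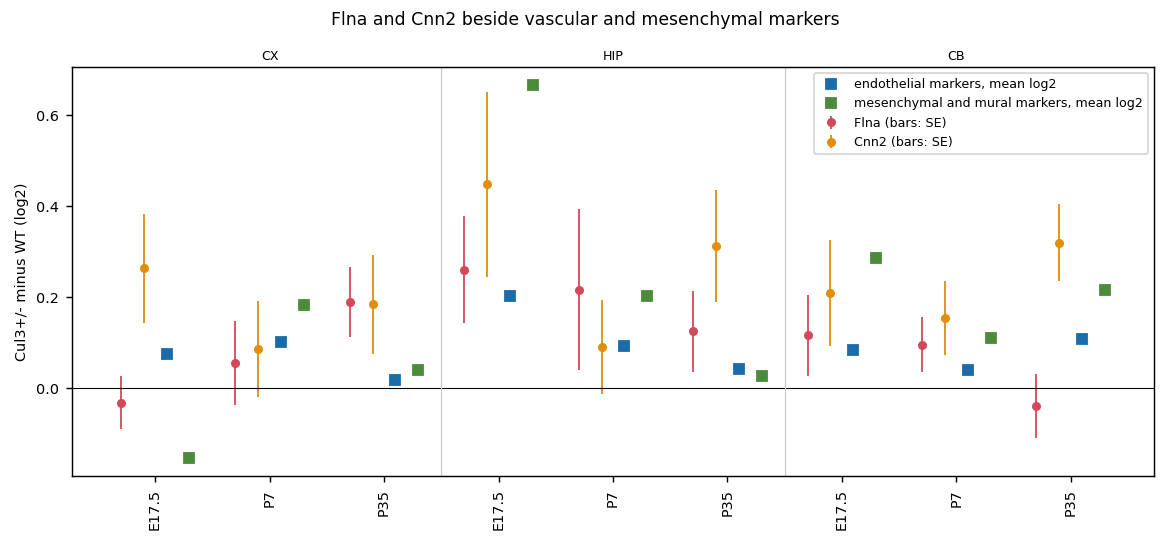
Difference between Cul3+/- and WT means in log2 units (y axis) in each of the 9 datasets (x axis), for Flna and Cnn2 and for the mean of the endothelial and of the mesenchymal and mural markers. Cnn2 and the endothelial mean lie above 0 in 9 of 9 datasets, the mesenchymal and mural mean in 8 of 9 and Flna in 7 of 9.

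Markers of the choroid plexus were high in some libraries, with a summed level of 2236 CPM in 1 WT library of P35 HIP (group median 63.3), 4665 CPM in 1 WT library of E17.5 HIP (group median 27.9) and 4280 CPM in 1 Cul3+/- library of P7 HIP (group median 31.9). Its part in the results was not tested. In the tests between WT periods, 80.7% of the 114 listed genes tested were called from E17.5 to P7 in CX (81.9% of all genes) and 79.8% from P7 to P35 (67.7%). In HIP these shares were 81.6% (78% of all genes) and 74.6% (62.7%), and in CB they were 83.3% (71.2%) and 85.1% (79.4%). The actin and filament-binding list had the lowest median of the 9 lists from P7 to P35 in CB, at -1.22, with 11 of 15 genes falling and 2 rising, in the same step in which Flna, Cfl1 and Pfn1 fell.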

How the data were processed

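Stranded, ribosome-depleted total RNA was sequenced, and the authors trimmed reads with cutadapt 1.14, aligned them with STAR 2.5.3a to GRCm38.p5 (mm10) and deposited expected counts per gene from RSEM 1.3, which share reads of ambiguous origin among related genes. For the present text, expected counts were rounded to whole numbers (5.76% were not whole), genes were filtered with filterByExpr (minimum count 10, minimum total 15) and libraries were scaled by TMM. edgeR 4.0.16 (quasi-likelihood test, R 4.3.3) compared genotypes within each dataset, periods within WT mice, and regions within WT mice with mouse as a block. limma 3.58.1 (voom, with the correlation within mice estimated) gave means over datasets. The threshold for a call was an adjusted p (Benjamini-Hochberg, all genes tested) under 0.1. Log2 ratios of counts (0.5 added) were compared by two-sided exact permutation tests, adjusted over 36 genotype and 24 period tests at 0.05. CPM per kb used merged exon lengths of the GENCODE annotation on GRCm38. DESeq2 1.42.0, other normalizations and filters, an Xist covariate in the genotype tests and left-out replicates were alternatives. A left-out replicate was a single library in the genotype test of a dataset and a single mouse in the tests between regions. In the tests between periods and in the mean over datasets, the replicate number was dropped from all periods or all datasets at once.

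The results name all 10 genes, the called pathway genes or those with the smallest p in each list, and the 3 genes most correlated with Rhoa and each adaptor. The 10 genes and the lists were chosen with earlier results of these data known. The scripts were tested on simulated data. Replicates are separate mice, and the lowest chi-square per gene over 270 replicate pairs was 4.39, so no pair agreed within sampling noise. Replicate numbers did not follow the mouse between all regions, so mice were identified from the sample names. Same-numbered WT and Cul3+/- mice share the prefix of their names in every region at E17.5 and P7, and the names at P35 carry no such prefix. At E17.5 a number stands for the same mouse in every region. In E17.5 CX all 6 same-numbered pairs deviated together across genes at r above 0.1 (r from 0.113 to 0.757). In each of the other 8 datasets at least 1 pair lay below 0.1, the lowest being 0.087 in P7 CX. In every dataset except P7 HIP the median r of same-numbered pairs was above that of other pairs. In P7 HIP these medians were -0.062 and 0.0018. The text takes no sequence of Rock1. Some genes of the lists are not reported here.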

Additional observations from a re-analysis of the deposited data

Results flagged for a closer look

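In 18 of 180 groups of 5 or 6 libraries, 1 library stood apart from the rest of its group, where chance alone flags about 1 in 20, or 9. No explanation was tested for any of them.

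WT replicate 4 of P7 HIP stood apart for 3 genes, with Rock1 high at 47.2 CPM, Flna high at 359 CPM and Cfl1 low at 552 CPM. WT replicate 3 of P35 CB stood apart for Cfl1, high at 373 CPM, and Pfn2, low at 171 CPM. Cul3+/- replicate 4 of P7 HIP was apart for Tnfaip1 at 64.9 CPM and Rhoa at 144 CPM. The other libraries apart for Tnfaip1 were WT replicate 2 of E17.5 HIP, low at 47.5 CPM, Cul3+/- replicate 5 of P7 CB at 66.1 CPM and Cul3+/- replicate 2 of P35 CX, low at 42.4 CPM. For Kctd10 they were Cul3+/- replicate 4 of E17.5 CX at 69.2 CPM and Cul3+/- replicate 4 of P35 CX at 49.1 CPM. For Rhoa they were WT replicate 4 of P7 CX at 152 CPM and Cul3+/- replicate 1 of P35 HIP, low at 93.3 CPM. For Flna they were Cul3+/- replicate 3 of P35 CX at 108 CPM and Cul3+/- replicate 2 of P35 CB at 139.8 CPM. In P35 CX, WT replicate 2 was apart for Cfl1 at 522 CPM and WT replicate 1 for Pfn1, low at 49.6 CPM.

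3 measures moved in opposite directions between regions of WT mice with no overlap of libraries, a difference between regions that was not tested. Kctd13 changed from E17.5 to P7 by 0.75 in CX, 1.21 in HIP and -0.25 in CB on the log2 scale. The log2 ratio of Pfn2 to Pfn1 changed in that step by 0.92 in CX, 0.68 in HIP and -0.40 in CB. The log2 ratio of Kctd10 to Tnfaip1 changed from P7 to P35 by 0.23 in CX, 0.43 in HIP and -0.44 in CB.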

How the results depend on the processing

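None of the 10 genes was called for genotype in any dataset under the alternatives run, with 1 exception: RUVs with 5 factors called 2 in P35 HIP, Kctd13 and Pfn1, where it called 2.77% of all genes. The mean over the 9 datasets stayed uncalled for all 10, and 3 values near 0 changed sign. Kctd13 was 0.0020 with upper-quartile normalization and lay between -0.022 and 0.0068 over the alternatives, replicate numbers left out of all datasets included. Cfl1 was 0.0013 with upper-quartile normalization and lay between -0.021 and 0.0047, and Pfn2 lay between -0.022 and 0.0040. Cul3 passed an exact p of 0.05 in 9 datasets with the 2 adult mice kept at the genotypes of the labels and in 6 with those of the supplementary list. WT region calls between HIP and CB at E17.5 numbered 1 without the low-count filter, Pfn2, and 2 to 4 with single replicates left out, and those between CX and HIP at P35 numbered 4 to 7, with 4 without WT replicate 2 or 6. The replicate block called 0 members for genotype, and it gave 5 calls from E17.5 to P7 in CB, losing Pfn2 (adjusted p = 0.110, edgeR), and 9 from P7 to P35 in HIP. The other counts of calls stayed within 1.5 times. Small fold changes near the threshold are limited by the 5 or 6 mice per group, and the 95% interval of the mean change of Rhoa, -5.70% to 0.218%, shows the precision reached. The cause of these changes was not tested.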
